A study of Mus musculus with 4 samples.

Results

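The Notch pathway passes signals between touching cells and was followed here through 10 genes: the ligands Jag1, Jag2 and Dll4, the receptors Notch1, Notch2, Notch3 and Notch4, and the target genes Hes1, Hey1 and Heyl. All 10 were found among the 19296 genes measured in mouse ureter, each by 1 probe set that the platform annotation gives to that gene alone. Knockout mice lacked both copies of the microRNA genes miR-143 and miR-145 (miR-143/145-/-), were 2.5 months old and had hydronephrosis, in which urine held back in the kidney distends it. Their wild type counterparts (miR-143/145+/+) were 4.5 months old with normal kidneys. All mice were males of a 129Sv/C57BL6 mix, with 2 mice per genotype, 1 array per mouse and 500 ng of total RNA labelled. The deletion is not described as limited to any cell type, and age and kidney state follow genotype in every mouse, so that their effects cannot be told apart. The values are RMA summaries on the log2 scale, in which a step of 1 is a doubling of the signal.

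A Notch ligand on 1 cell binds a Notch receptor on its neighbour, and the receptor is then cut first by ADAM proteases and then by gamma-secretase. The freed intracellular domain enters the nucleus, joins the DNA-binding factor RBPJ and coactivators of the Mastermind family, and switches on repressor genes of the Hes and Hey families. In blood vessels DLL4, NOTCH1 and NOTCH4 are known from endothelium and NOTCH3 with HEYL from the surrounding mural cells, while Notch signalling also takes part in the differentiation of smooth muscle. In cultured human vascular smooth muscle cells, Notch signalling has been reported to raise transcription of the miR-143 and miR-145 cluster itself, which is abundant in smooth muscle.

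RBPJ recognises the core TGGGAA, often within GTGGGAA. The 250 bases before the annotated start (RefSeq, GRCm38.p6) are shown for Jag2, the ligand gene that rose in knockout ureter, and for Hes5 and Hey2, target genes of the pathway with this core in their window. Capitals mark the core on either strand, where TTCCCA is the core read on the other strand. The Jag2 window is chr12:112929496-112929745 on the minus strand, the Hes5 window chr4:154960673-154960922 on the plus strand and the Hey2 window chr10:30842784-30843033 on the minus strand, each printed 5′ to 3′ in the direction of transcription.
Jag2: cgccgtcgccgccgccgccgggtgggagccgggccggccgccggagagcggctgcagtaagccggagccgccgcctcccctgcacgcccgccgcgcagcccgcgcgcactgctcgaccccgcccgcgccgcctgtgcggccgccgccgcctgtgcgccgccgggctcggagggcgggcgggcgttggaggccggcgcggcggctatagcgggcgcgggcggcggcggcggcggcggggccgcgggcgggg
Hes5: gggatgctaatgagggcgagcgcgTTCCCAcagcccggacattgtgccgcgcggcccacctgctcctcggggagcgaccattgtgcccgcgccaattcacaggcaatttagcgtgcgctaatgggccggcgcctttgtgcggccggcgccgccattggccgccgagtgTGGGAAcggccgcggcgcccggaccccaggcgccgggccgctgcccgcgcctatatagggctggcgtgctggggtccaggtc
Hey2: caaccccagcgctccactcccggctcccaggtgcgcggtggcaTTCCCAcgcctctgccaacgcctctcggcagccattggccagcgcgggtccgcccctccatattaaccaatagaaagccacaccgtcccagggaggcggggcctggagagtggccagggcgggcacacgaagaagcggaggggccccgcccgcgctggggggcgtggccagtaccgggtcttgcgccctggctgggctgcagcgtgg

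The Hes5 window holds the core 2 times, beginning 226 and 82 bases before the start, and the Hey2 window holds it once, beginning 207 bases before the start. Each of these 3 matches is part of the longer GTGGGAA, so the counts of the longer and the shorter motif overlap. The Jag2 window holds neither, is rich in C and G (218 of 250 bases) and has 54 CG pairs, against medians of 131 C or G bases and 6 CG pairs over all windows of this length. Windows were matched for 7 of the 10 genes, all but Hes1, Hey1 and Heyl, and 0 of those 7 held the core. Over the 10 genes and the other pathway genes tested, 13 of 62 windows held it (21.0%), against 21.6% of all 32851 windows; 5.42% of all windows held GTGGGAA. A match describes the letters of a window and not the binding of a factor.

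The deleted genes were checked first. Mir145a measured 4.60 and 5.02 in knockout ureters, against 8.28 and 8.42 in wild type ureters, and Mir143 measured 6.48 and 6.53, against 7.64 and 7.85. Both knockout values of each gene lay below the background level of 6.58, set so that 95% of 1024 olfactory receptor genes had a mean below it. The falls were at least 3.42-fold for Mir145a and at least 2.24-fold for Mir143, the wild type mean set against the background level (limma, adjusted p = 0.00193 and 0.0148). All 10 Notch genes lay above background on all 4 arrays. Array medians lay between 7.81 and 7.89, and the precision of every value is limited by the number of arrays. The arrays differed more at low values. Their lower quartiles were 6.26 and 6.27 in knockout ureters, against 6.36 and 6.45 in wild type ureters. Genes above background numbered 13515 and 13558, against 13838 and 14231. The ureter wall was represented by its markers: all 20 urothelial and all 15 smooth muscle markers tested lay above background.

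Of the 10 Notch genes, Jag2 rose in knockout ureter, 0 fell, and 9 did not pass an adjusted p of 0.05 in limma. Over all genes 2.38% passed: 1.90% rose and 0.477% fell, 367 and 92 genes (245 and 148 with the arrays centred on their medians). The largest differences were those of Jag2 (0.64), Heyl (-0.60) and Hes1 (0.50), and thus target genes of the pathway had means on opposite sides of wild type. At an unadjusted limma p under 0.05, 3 of the 10 were higher and 1 was lower, against 12.7% and 13.8% of all genes. The knockout arrays lay wholly above the wild type arrays for 7 of the 10 and wholly below them for 2, against 28.0% and 32.0% of all genes, 60.0% together. The median log2 difference of the 10 was 0.12, and that of all genes -0.020. Every log2 difference below is knockout minus wild type, with the moderated standard error (SE) of limma, and the 95% intervals are not adjusted for the number of genes.

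**Figure D1:**
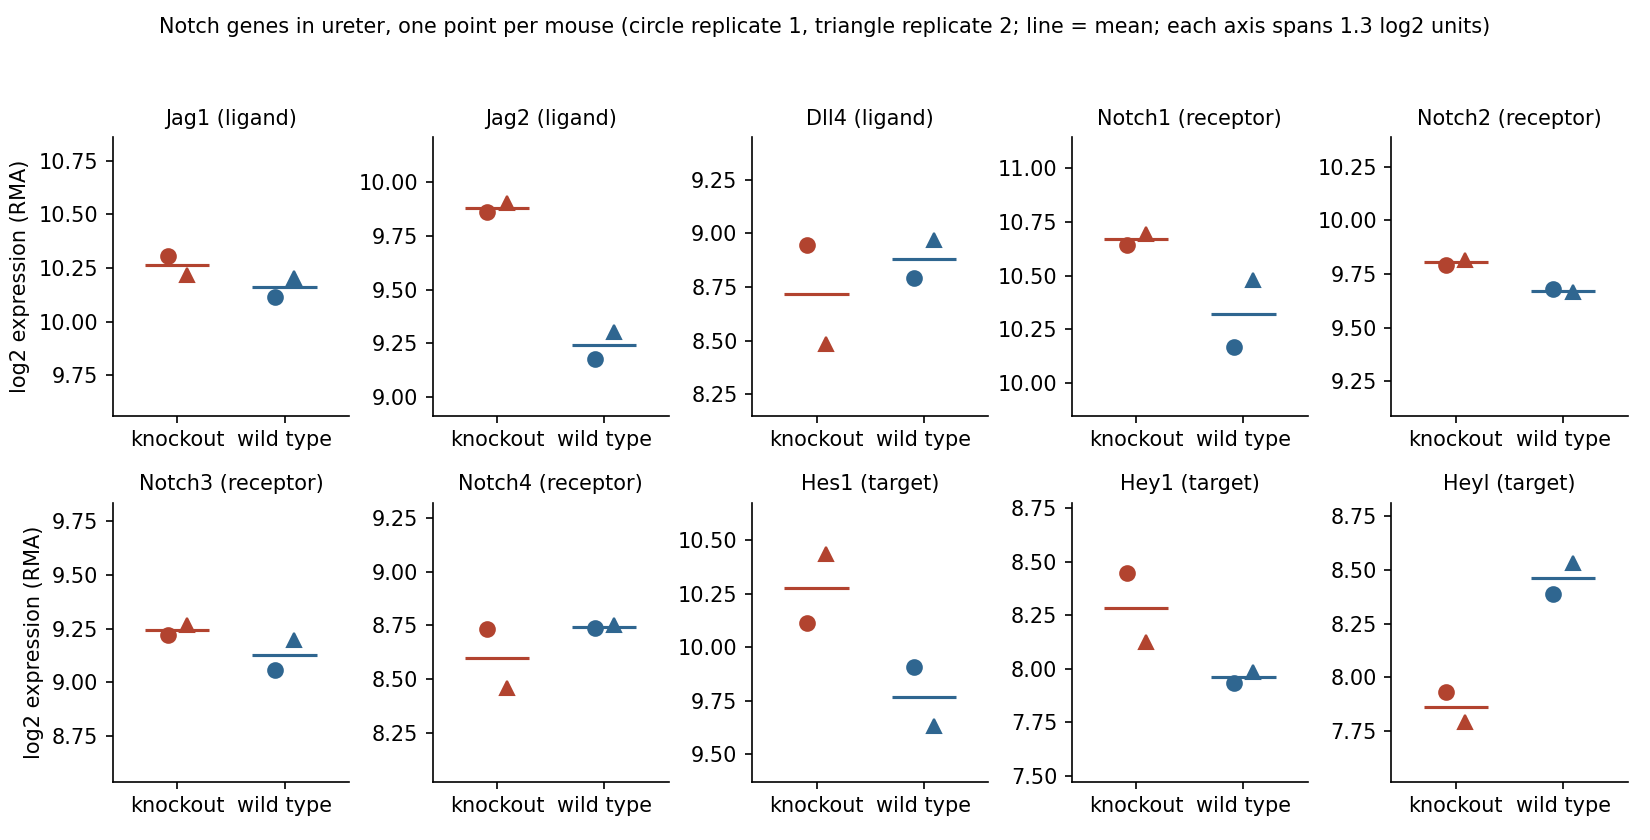
Log2 expression (RMA) of the 10 Notch genes, 1 panel per gene, with 1 point per mouse (circles replicate 1, triangles replicate 2), knockout left of wild type, and lines at the group means; every axis spans the same range. Jag2 is higher and Heyl lower in both knockout ureters with a wide gap to the wild type ureters, while Dll4 overlaps between genotypes.

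Jag2 encodes a ligand of the Serrate type, made by many epithelia. It measured 9.86 and 9.90 in knockout ureters, against 9.18 and 9.30 in wild type ureters. Both knockout values were above both wild type values, and the gap between genotypes was wider than the spread within either. The rise was 1.56-fold, a log2 difference of 0.64 (SE 0.12, 95% interval 0.36 to 0.92; limma, adjusted p = 0.0486). The call ended when the arrays were quantile normalized once more (adjusted p = 0.0701), when they were centred on their medians (0.0517), without knockout replicate 2 (0.0751), and without wild type replicate 1 or 2 (0.183 and 0.216), with differences of 0.55 to 0.70 under these settings.

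Jag1, the ligand best known from vascular smooth muscle, measured 10.31 and 10.22 in knockout ureters, against 10.11 and 10.21 in wild type ureters. The lower knockout value and the higher wild type value nearly met. Its log2 difference was 0.10 (95% interval -0.17 to 0.38; limma, adjusted p = 0.603). Dll4, the endothelial ligand that restrains vessel sprouting, measured 8.95 and 8.49 in knockout ureters and 8.79 and 8.97 in wild type ureters. It was the 1 gene of the 10 whose genotypes overlapped, since knockout replicate 1 lay between the wild type values. Its difference was -0.17 (95% interval -0.57 to 0.24; limma, adjusted p = 0.571) and turned to 0.065 without knockout replicate 2.

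In limma 0 of the 4 receptor genes passed, with 1, Notch1, higher at an unadjusted p under 0.05, beside 12.7% of all genes. In the knockout means 3 receptor genes were higher and 1 lower. Notch1, which acts in endothelium and in many epithelia, had the widest difference of them: it measured 10.64 and 10.70 in knockout ureters, against 10.17 and 10.48 in wild type ureters. The wild type values lay further apart than the knockout values. The log2 difference was 0.35 (SE 0.14, 95% interval 0.016 to 0.67; limma, adjusted p = 0.174), and 0.19 to 0.50 over the mice left out in turn.

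Notch2, which patterns many tissues including the kidney, measured 9.79 and 9.82 in knockout ureters, against 9.68 and 9.66 in wild type ureters. Its genotypes were apart by little but with close replicates, and the difference was 0.13 (95% interval -0.13 to 0.40; limma, adjusted p = 0.482). Notch3, the receptor of mural and vascular smooth muscle cells, measured 9.22 and 9.26 in knockout ureters, against 9.06 and 9.20 in wild type ureters. That difference was 0.12 (95% interval -0.16 to 0.40; limma, adjusted p = 0.561), and 0.045 without wild type replicate 1. Notch4, a receptor of endothelium, measured 8.74 and 8.46 in knockout ureters and 8.74 and 8.75 in wild type ureters. Knockout replicate 2 stood below the other 3 arrays, which were alike. The difference of Notch4 was -0.15 (95% interval -0.46 to 0.17; limma, adjusted p = 0.513), and -0.0085 without knockout replicate 2.

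The target genes encode basic helix-loop-helix repressors. Hes1, which many signals besides Notch can induce, measured 10.11 and 10.44 in knockout ureters, against 9.91 and 9.63 in wild type ureters. The genotypes were apart, with replicates of each spread by a similar amount. The log2 difference was 0.50 (SE 0.16, 95% interval 0.13 to 0.88) and did not pass (limma, adjusted p = 0.111), with a range of 0.34 to 0.67 over the mice left out in turn. Of the 12 alternatives 1 called it, that without knockout replicate 1 (0.67), which left 1 knockout array and so no spread in that genotype.

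Hey1, a target in endothelium and the heart, measured 8.44 and 8.12 in knockout ureters, against 7.94 and 7.99 in wild type ureters. Knockout replicate 1 carried most of the difference of 0.32 (95% interval -0.0098 to 0.66; limma, adjusted p = 0.198), which was 0.16 without it and 0.48 without knockout replicate 2. Heyl, a target tied to Notch3 in mural and smooth muscle cells, measured 7.93 and 7.79 in knockout ureters, against 8.39 and 8.53 in wild type ureters. Both knockout ureters were below both wild type ureters by more than the spread within a genotype. The knockout level was 0.660 times that of wild type, a log2 difference of -0.60 (SE 0.12, 95% interval -0.89 to -0.31), just short of the threshold (limma, adjusted p = 0.0566). Of the 12 alternatives 5 called it. It passed when only genes above background were tested (0.0483), with centred arrays (0.0491) and with robust eBayes (0.0415). It did not pass with a further quantile normalization (0.0574). Its difference ranged from -0.67 to -0.53 over the mice left out in turn.

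**Figure D2:**
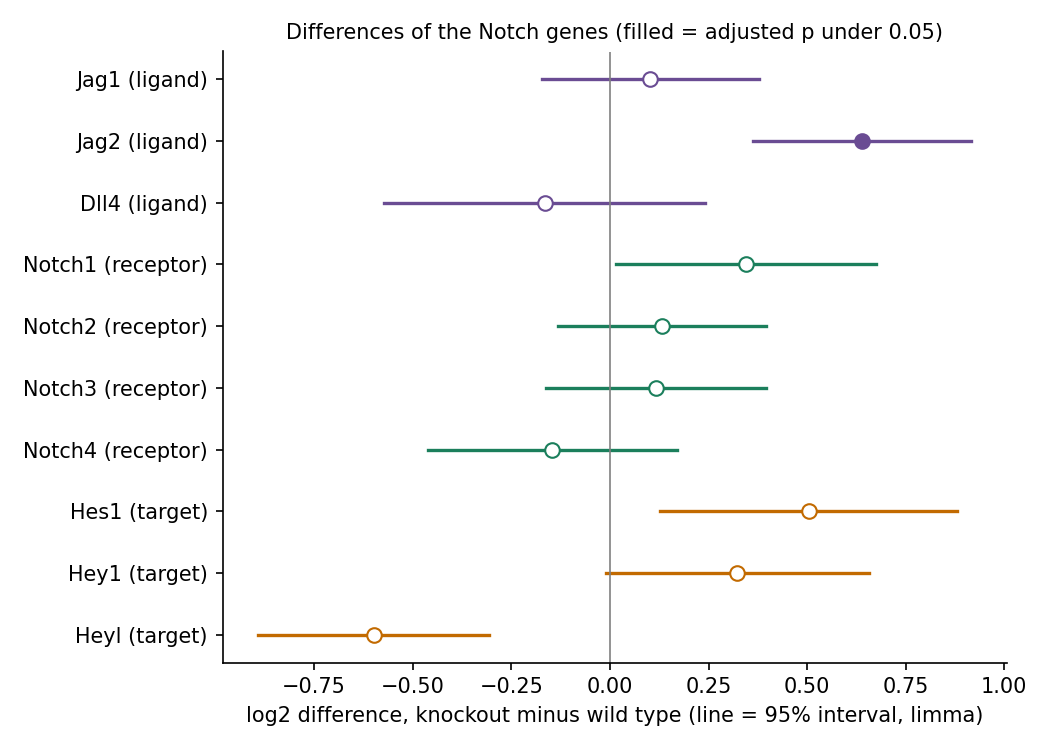
Log2 difference, knockout minus wild type, of each Notch gene from top to bottom as ligands, receptors and targets; points are limma estimates, lines their 95% intervals, and a filled point marks an adjusted p under 0.05. Jag2 at 0.64 is the filled point, and Heyl at -0.60 lies on the opposite side of 0 from Hes1 at 0.50 and Hey1 at 0.32.

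Around these 10 genes, a list of 51 other pathway genes had 49 tested, of which 0 rose, 1 fell and 48 did not pass. At an unadjusted limma p under 0.05, 5 were higher and 5 lower, beside 12.7% and 13.8% of all genes. Their median difference was 0.11, with 27 higher and 22 lower. The gene that fell was Dlk1, an imprinted relative of the Notch ligands that is also a marker of preadipocytes. Dlk1 measured 8.23 and 7.83 in knockout ureters, against 9.09 and 9.01 in wild type ureters, so that both genotypes were well apart. The knockout level was 0.493 times that of wild type, a log2 difference of -1.02 (SE 0.16; limma, adjusted p = 0.0362), and the call was lost without wild type replicate 1 or 2 (0.183 and 0.216), settings under which 0 of all genes passed in limma. At an unadjusted p under 0.05 there were 1802 higher and 2451 lower genes without wild type replicate 1, and 1791 and 1288 without replicate 2.

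The Hes and Hey repressors with Nrarp, a feedback inhibitor that Notch induces, made up 10 tested genes, of which 0 passed in limma. An unadjusted p under 0.05 was met by 1 higher gene, Hes1, and 3 lower ones, Heyl, Hes5 and Hes3, beside 12.7% and 13.8% of all genes. The knockout arrays lay wholly above wild type for 3 of them, Hes1, Hey1 and Nrarp, and wholly below for the other 7, beside 28.0% and 32.0% of all genes. One of the 7, Hes3, lay above background on only 1 array, a wild type one. The lower quartiles of the arrays were also lower in knockout ureters, and their part in the 7 was not tested. Hes5, a Notch target best known from neural progenitors, measured 7.66 and 7.71 in knockout ureters, against 8.12 and 8.23 in wild type ureters. Its difference was -0.49 (SE 0.12; limma, adjusted p = 0.0703). Hey2, the third Hey gene, measured 7.47 and 7.40 in knockout ureters, against 7.96 and 7.59 in wild type ureters, a difference of -0.34 (limma, adjusted p = 0.198) that ranged from -0.52 to -0.16 over the mice left out. Nrarp, chosen after its values were seen, differed by 0.52 (adjusted p = 0.197).

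Of the 5 sugar transferases that modify the receptors, 0 passed in limma. At an unadjusted p under 0.05, 1 was lower, Mfng, beside 13.8% of all genes. The 3 Fringe genes were all lower in the knockout means. Mfng measured 9.39 and 8.87 in knockout ureters, against 9.63 and 9.76 in wild type ureters, a difference of -0.57 (limma, adjusted p = 0.116). The difference of Mfng was -0.83 without knockout replicate 1 and -0.30 without knockout replicate 2. Lfng measured 9.20 and 9.12 in knockout ureters, against 9.38 and 9.27 in wild type ureters (difference -0.17, adjusted p = 0.398). Among 9 genes of receptor cleavage, proteases and the other subunits of gamma-secretase, 6 were higher and 3 lower, between -0.17 and 0.36. In limma 0 of them passed, with 2 higher at an unadjusted p under 0.05, beside 12.7% of all genes.

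Among 15 genes of receptor turnover and ligand endocytosis, 11 were higher and 4 lower, and 0 passed in limma. An unadjusted p under 0.05 was met by 2 higher and 1 lower, beside 12.7% and 13.8% of all genes. Dtx2 and Dtx3, both of the Deltex family of ubiquitin ligases, differed in opposite directions. Dtx2 measured 9.28 and 9.16 in knockout ureters, against 9.75 and 9.77 in wild type ureters (difference -0.54, limma adjusted p = 0.0587). Dtx3 measured 8.61 and 8.85 in knockout ureters, against 8.09 and 8.30 in wild type ureters (difference 0.53, adjusted p = 0.0832). Without knockout replicate 1 these differences were -0.60 and 0.66, and without knockout replicate 2 they were -0.48 and 0.41. Dtx2 passed with robust eBayes (limma, adjusted p = 0.0463). Numb, an inhibitor that sends Notch receptors to degradation, measured 9.75 and 9.91 in knockout ureters, against 9.35 and 9.52 in wild type ureters (difference 0.40, adjusted p = 0.115).

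In the nuclear complex 6 of 8 genes were higher and 2 lower. In limma 0 passed, with 1 higher at an unadjusted p under 0.05, beside 12.7% of all genes. Rbpj itself measured 9.48 on both knockout arrays, against 9.41 and 9.36 in wild type ureters. Its difference was 0.093 (95% interval -0.17 to 0.36; limma, adjusted p = 0.626), and -0.0025 after 1 more quantile normalization. Maml2, a Mastermind coactivator, measured 9.87 on both knockout arrays, against 9.27 and 9.52 in wild type ureters (difference 0.47, adjusted p = 0.0887). The ligand gene Dll1 measured 8.01 and 7.93 in knockout ureters and 7.82 and 8.19 in wild type ureters, with overlap between genotypes (difference -0.030, adjusted p = 0.918).

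**Figure D3:**
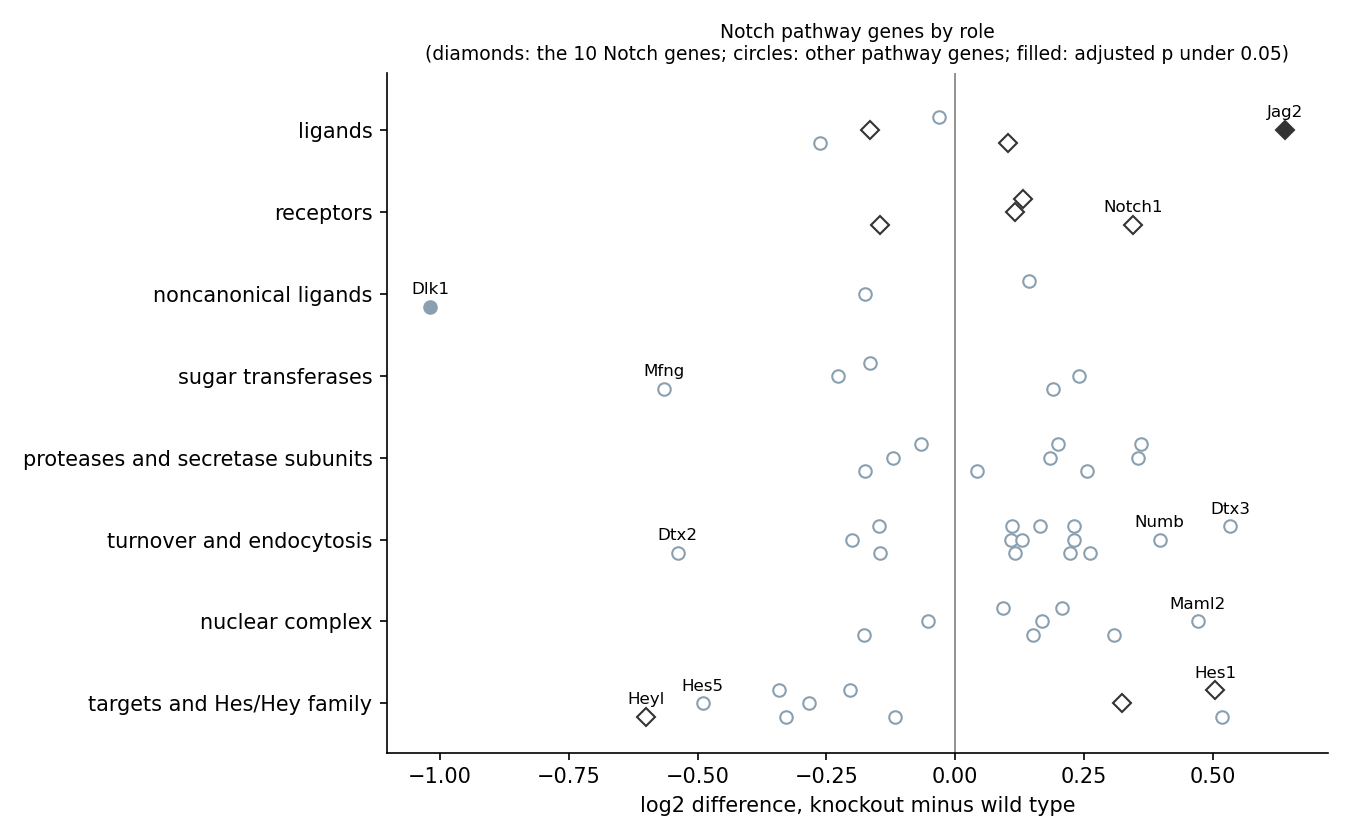
Log2 difference, knockout minus wild type, of the 59 tested Notch pathway genes, grouped by role; diamonds are the 10 Notch genes, circles the other pathway genes, and filled symbols passed an adjusted p of 0.05. Jag2 at 0.64 and Dlk1 at -1.02 are filled, and the targets are split between Heyl and Hes5 on the lower side and Hes1 on the higher side.

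Marker lists of cell types also varied between the arrays, with overlap between genotypes in the endothelial, mural and kidney means. In whole ureter, fewer cells of a type and less RNA per cell cannot be told apart. Urothelial markers, from the epithelium that lines the ureter, had list means of 11.48 and 11.82 in knockout ureters, against 10.91 and 11.19 in wild type ureters, and 19 of 20 were higher. An unadjusted limma p under 0.05 was met by 19, all higher, beside 12.7% of all genes. The 4 arrays stood in the same order as in this list for 13 of the 59 pathway genes, Jag2, Notch1 and Notch3 among them. Over all genes, 28.0% had knockout arrays wholly above wild type, as this list did. The share of all genes in the exact order of a list was not counted, here or for the lists below. Of those, the smooth muscle, mural and kidney lists shared their order with 3, 1 and 1 of the 59 genes. The part of urothelium in the values of the 13 pathway genes was not tested. Of the list 2 genes rose, the claudin gene Cldn8 by 2.00-fold and Trp63, a factor of basal cells, by 1.78-fold, though neither passed after 1 more quantile normalization (adjusted p = 0.0595 and 0.0676), and Trp63 also failed with centred arrays (0.0508) and without knockout replicate 2 (0.0593).

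Endothelial markers had list means of 9.81 and 9.66 in knockout ureters and 9.74 and 9.89 in wild type ureters. Of 22, 8 were higher and 14 lower, with 0 past the threshold in limma. At an unadjusted p under 0.05, 2 were higher and 4 lower, beside 12.7% and 13.8% of all genes. The order of the 4 arrays was the same for Dll4 and 1 other pathway gene as for this list. Knockout replicate 2 was lowest in the list, Dll4 and Notch4, and also in the adipocyte and lymphocyte lists described below. The full order of Notch4 was that of the lymphocyte list and not of the endothelial list. The 2 endothelial markers of smallest p were Cldn5, with a difference of -0.73 (limma, adjusted p = 0.0587), and Sox17, with 0.48 (adjusted p = 0.0742). The difference of Cldn5 ranged from -0.93 to -0.53 over the mice left out in turn. The part of endothelium in the values of Dll4 and Notch4 was not tested.

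Mural cell markers, which share Gja4 with the endothelial list, had means of 9.52 and 9.42 in knockout ureters and 9.29 and 9.44 in wild type ureters. Of 10, 6 were higher, and 7 overlapped between genotypes. An unadjusted limma p under 0.05 was met by 2 higher and 1 lower, beside 12.7% and 13.8% of all genes. Smooth muscle markers had means of 11.34 and 11.19 in knockout ureters, against 11.11 and 11.01 in wild type ureters, with 12 of 15 higher. At the same unadjusted p, 6 of them were higher and 1 lower, beside the same shares of all genes. The part of either cell type in the values of Notch3 and Heyl was not tested. Of these lists Abcc9 and Myocd rose, by 0.83 and 1.01, while Mcam differed by -0.34 and Cnn1 by 0.49 without passing.

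Adipocyte markers had list means of 12.45 and 11.93 in knockout ureters, against 12.77 and 12.67 in wild type ureters. All 11 were lower and 0 passed in limma. At an unadjusted p under 0.05, 8 were lower, beside 13.8% of all genes. The adipokine genes Adipoq and Retn had the smallest p, with differences of -0.73 and -0.65. These were -1.03 and -0.91 without knockout replicate 1, but -0.42 and -0.38 without knockout replicate 2. The order of the 4 arrays was the same for Dlk1 and 3 other pathway genes as for this list, and the part of fat in its value was not tested. Lymphocyte markers had means of 6.91 and 6.60 in knockout ureters, against 7.33 and 7.53 in wild type ureters. Of 11 tested, 8 lay above background in at least 1 genotype, and 9 were lower and 2 higher. At an unadjusted limma p under 0.05, 6 were lower and 0 higher, beside 13.8% and 12.7% of all genes. In this list 2 genes fell, the immunoglobulin genes Igha and Ighm, with differences of -1.58 and -1.22. Jchain had the largest difference, -2.54, and did not pass (limma, adjusted p = 0.0749). The 2 higher genes were Ptprc (0.080) and Ms4a1 (0.062, below background). Averaging the probe sets of Ighm ended its call (limma, adjusted p = 0.0999). The order of arrays of the lymphocyte list was shared by 9 of the 59 pathway genes, Heyl and Notch4 among them. The part of lymphocytes in the values of these 9 was not tested. In the adipocyte and lymphocyte list means the knockout arrays lay wholly below wild type, as they did for 32.0% of all genes. Kidney markers stood out in knockout replicate 1, with means of 8.84 and 7.44 in knockout ureters and 7.29 and 7.89 in wild type ureters. Of 15 kidney markers 0 passed in limma. An unadjusted p under 0.05 was met by 3 higher and 1 lower, beside 12.7% and 13.8% of all genes. Among the 3 were Aqp1 and Aqp3, which measured between 11.49 and 12.51 on every array. Cubn, below background on both wild type arrays, was at least 1.75-fold higher in the knockout mean (limma, adjusted p = 0.0762). Its knockout values were 7.87 and 6.90. Nphs1 differed by -0.51.

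**Figure D4:**
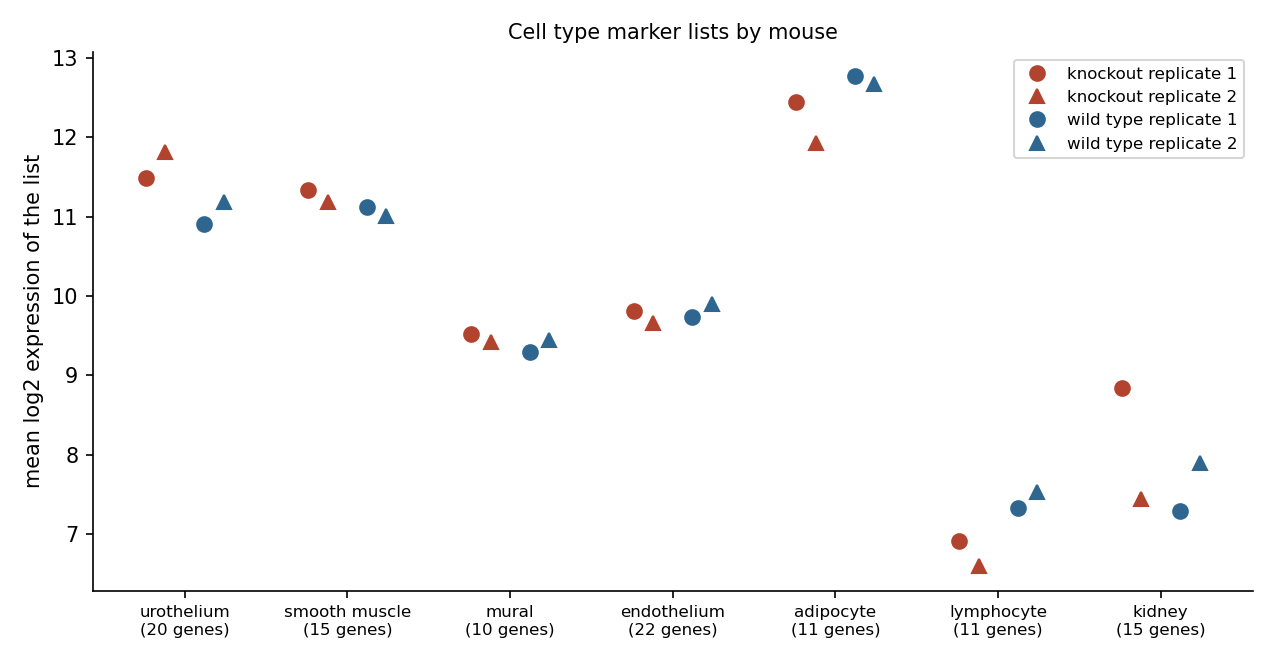
Mean log2 expression of each cell type marker list on each array, knockout (left, red) beside wild type (right, blue), circles for replicate 1 and triangles for replicate 2. Urothelial means are higher in both knockout ureters, adipocyte and lymphocyte means are lower, and the kidney mean of 8.84 in knockout replicate 1 stands above the other 3 arrays.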

How the data were processed

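Ureter RNA of 2 knockout and 2 wild type mice was measured on Affymetrix whole-transcript arrays. The authors deposited log2 expression values per probe set; their processing notes list RMA, R 2.15.0 and limma 3.12.1, per the labels. The sources used here do not give the genome build. RMA brings arrays closer in distribution, so changes shared by most genes are reduced. The deposited values were still not alike, with lower quartiles from 6.26 in knockout replicate 1 to 6.45 in wild type replicate 2. Of 23309 probe sets, 20728 had 1 gene symbol, 1174 several and 1407 none; of those with 1, 20685 matched the gene table by Entrez ID. The brightest probe set by mean over the 4 arrays stood for each of 19296 genes, without a filter on low values.

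The genotypes were compared in R 4.3.3 with limma 3.58.1 (plain eBayes). P-values were adjusted by Benjamini-Hochberg over the 19296 genes, with a threshold of 0.05; adjusted p-values come from this fit unless a setting is named. The script was tested on simulated data. It called 0% of genes given a log2 change of 0.5 or 0.75, 72.5% at 1 and 100% at 2. Fewer genes were changed there than were called in the data, so these shares are a guide. A gene that did not pass is thus not shown to be unchanged. The labels call the mice biological replicates. The Notch genes and all lists were chosen with earlier results of these data known. Named genes are the 10, the deleted genes, pathway genes past the threshold with the next 6 by p above background, Rbpj, Dll1, Hey2 and Lfng, and 2 markers per cell type list. Of 12 alternatives, 4 left out a mouse.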

Additional observations from a re-analysis of the deposited data

How the results depend on the processing

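Precision was limited by 2 mice per genotype. Across 252 values (21 Notch pathway genes by 12 alternatives), 228 kept direction and side of the threshold, 13 passed that had not, 7 no longer passed and 4 changed sign. The sign changes were Rbpj at -0.0025 with a further quantile normalization, Dll4 at 0.065 and Dll1 at 0.0077 without knockout replicate 2, and Dll1 at 0.16 without wild type replicate 2 (ranges over the mice left out in turn -0.40 to 0.065 and -0.22 to 0.16); their cause was not tested. For all genes, 367 higher and 92 lower became 164 and 50 with a further quantile normalization and 655 and 247 with robust eBayes, while 147 were lower among genes above background and 148 with centred arrays. Leaving out a mouse, with the lone mouse of its genotype assumed to vary like the others, gave 0 to 1115 higher and 0 to 629 lower, the 0 in both cases without a wild type mouse, where Mir145a and Mir143 also lost their calls, with differences over the 4 mice left out of -3.75 to -3.33 and -1.34 to -1.13; since the knockout values lie below background, these measure no size of the fall. Among the 10 Notch genes, 0 were higher with a further quantile normalization or centred arrays; 1 was lower, Heyl, with centred arrays, robust eBayes or only genes above background. Leaving out a mouse gave 0 to 2 higher and 0 to 1 lower of the 10, and 0 to 2 higher and 0 to 3 lower of the other pathway genes, of which 2 were lower with robust eBayes. With the replicate number as a block, 1164 genes were higher and 758 lower, 1 Notch gene was lower (Heyl, adjusted p = 0.0315), and 2 other pathway genes were higher and 3 lower (among them Dtx3 and Dtx2, adjusted p = 0.0351 and 0.0364). The deviations of same-numbered mice correlated at -0.028 over genes, and the labels give no pairing. With 2 mice per genotype this correlation cannot show whether same-numbered mice were handled together.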
